A study of Mus musculus with 30 samples.

Results

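The transcripts of 8 genes were followed in the livers of 30 mice, namely Themis, Ly6d, Sprr1a, Rarres1, Ifi27l2b, Rgs16, Aqp4 and Slc20a1. They were chosen from the readout itself, as genes outside the classic lipid pathways that were raised in undernourished offspring on a high-fat diet (HFD) and lower with tauroursodeoxycholic acid (TUDCA), so that these differences are described below without a test. The 8 are taken from 22180 genes that a probe set names alone, and each had exactly 1 probe set. Livers came from male C57Bl/6NCr mice born to dams fed normally (NN) or given 40% fewer calories in late pregnancy (UN), and all pups were fostered by NN dams. Cohort 1 held the groups NN-9wk and UN-9wk (3 mice each, 9 weeks of age, regular chow, before HFD). Cohort 2 held NN-17wk and UN-17wk (4 each, 17 weeks, 8 weeks of HFD). Cohort 3 held NN-Veh, UN-Veh, NN-TU and UN-TU (4 each, 22 weeks, 13 weeks of HFD), with vehicle or TUDCA, a secondary bile acid known to ease endoplasmic reticulum stress, given by mouth in the last 5 weeks. Each array held the RNA of 1 mouse, litters are not given, and cohorts differ in age and in diet at the same time.

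The 8 genes belong to unrelated families. Themis is a signalling protein of developing T cells. Ly6d is a small surface protein anchored by a lipid, and Sprr1a is a building block of the cornified envelope of squamous epithelium that is also known as an injury-induced gene in other tissues. Rarres1 is a membrane protein induced by retinoids, and Ifi27l2b belongs to a family of interferon-induced proteins. Rgs16 switches off G protein signalling, and in mouse liver its transcript is known to follow the clock and feeding. Aqp4 is a water channel best known from astrocytes, and Slc20a1 carries phosphate together with sodium into most cells. In liver tissue as a whole, more cells of a type and more RNA per cell cannot be told apart.

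On the mouse genome GRCm38.p6 the genes lie apart from each other, with Sprr1a (chr3:92483954-92485881) and Rarres1 (chr3:67478886-67515523) on the same chromosome but distant. Themis spans chr10:28668360-28883820, Ly6d chr15:74762056-74763567, Ifi27l2b chr12:103450898-103457223, Rgs16 chr1:153740353-153745468, Aqp4 chr18:15389394-15410982 and Slc20a1 chr2:129198773-129211615, and all 8 are annotated as protein coding. Values are log2 signals, on which a difference of 1 is a doubling, and array medians lay between 4.11 and 4.25. Over all probe sets of named genes, the mean signal of Rgs16 (7.43) and Slc20a1 (7.08) lay at the percentiles 90.6 and 88.3, that of Ly6d (6.54) at 83.9 and that of Rarres1 (6.32) at 81.9. Aqp4 (5.30) lay at 70.4, Ifi27l2b (4.74) at 61.7 and Themis (4.51) at 57.3. Sprr1a (3.99) lay at 46.3, below the array medians. The means of Sprr1a in every group but UN-Veh and UN-17wk, of Themis at 9 weeks and with TUDCA, and of Ifi27l2b at 9 weeks were also below the array medians, and differences from such dim values may be understated. These percentiles rank probe sets and do not compare amounts of RNA between genes.

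One array stood apart. The median r of UN-17wk replicate 14 with all others was 0.883, while UN-17wk replicate 13 had 0.973 and the remaining arrays at least 0.983. The summed signal of 13 hepatocyte markers on replicate 14 was 12.99 on the log2 scale, whereas the 7 groups outside UN-17wk lay between 15.21 and 15.66. On UN-17wk replicate 13 the hepatocyte sum was 15.47. All 13 markers had a mean above the array medians in every group. Differences of UN-17wk from other groups are given with and without replicate 14, whereas group means and spreads within groups include it.

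**Figure D1:**
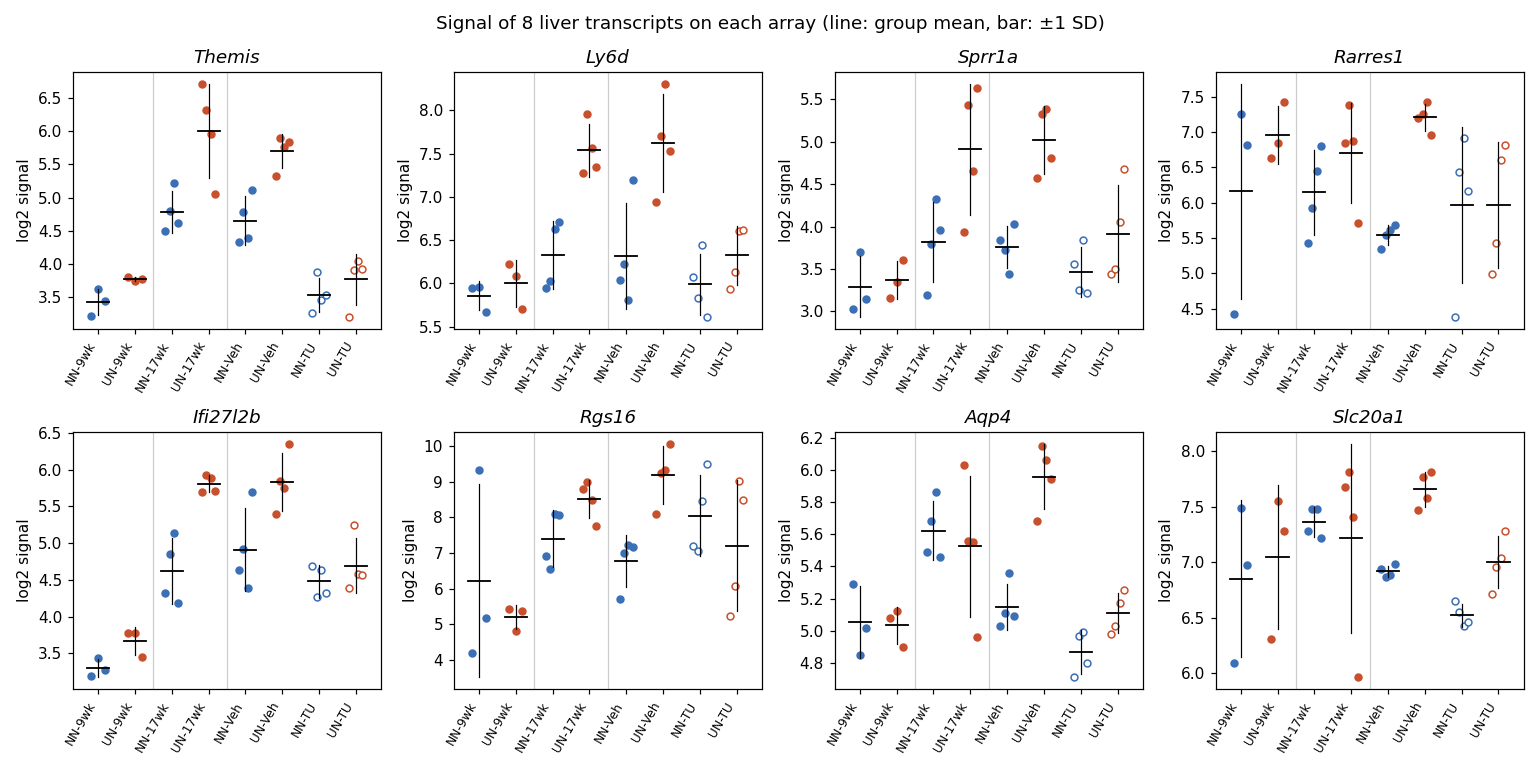
Log2 signal of each of the 8 transcripts on 30 arrays, with groups on the horizontal axis in the order of the cohorts, NN in blue, UN in orange and open circles for TUDCA. Lines are group means and bars are 1 SD, and Themis runs from 3.20 to 6.71 while Rgs16 runs from 4.19 to 10.07.

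Of the 8 genes, Themis had the widest separation between groups relative to its spread within groups. At 9 weeks it read 3.22, 3.62 and 3.44 in NN and 3.80, 3.75 and 3.78 in UN. At 17 weeks it read 4.49, 4.79, 5.22 and 4.62 in NN and 6.71, 6.31, 5.96 and 5.05 in UN, the last being replicate 14. With vehicle at 22 weeks it read 4.33, 4.78, 4.39 and 5.11 in NN and 5.33, 5.89, 5.76 and 5.83 in UN. All 4 UN-Veh livers were above all 4 NN-Veh livers, and all HFD livers without TUDCA were above all livers of 9 weeks. With TUDCA the values were 3.26, 3.88, 3.46 and 3.54 in NN and 3.20, 3.91, 4.04 and 3.93 in UN, so that both TUDCA groups lay in or near the range of the chow-fed livers. In the order of group means, UN-17wk (6.01 ± 0.71, SD, n = 4) and UN-Veh (5.70 ± 0.25, n = 4) led, followed by NN-17wk (4.78 ± 0.31) and NN-Veh (4.65 ± 0.36). UN-9wk (3.78 ± 0.02, n = 3), UN-TU (3.77 ± 0.38), NN-TU (3.54 ± 0.26) and NN-9wk (3.43 ± 0.20) came last. Neighbours in this order did not overlap only between UN-Veh and NN-17wk and between NN-Veh and UN-9wk. Of the squared deviations of Themis over the 30 arrays, 10.6% lay within groups.

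Ifi27l2b followed a like order but stayed above the chow-fed level under TUDCA. It read 3.19, 3.44 and 3.27 in NN-9wk and 3.77, 3.78 and 3.45 in UN-9wk. After 8 weeks of HFD it read 4.32, 4.85, 5.13 and 4.18 in NN and 5.70, 5.93, 5.88 and 5.71 in UN, where replicate 14 (5.71) was not apart from the others. At 22 weeks NN-Veh read 4.63, 4.92, 4.39 and 5.69, and UN-Veh read 5.39, 5.85, 5.75 and 6.35. These groups overlapped through the NN-Veh liver at 5.69. The TUDCA groups read 4.69, 4.26, 4.64 and 4.32 in NN and 4.39, 5.24, 4.58 and 4.56 in UN, and all 8 stayed above all livers of 9 weeks. Within groups lay 12.4% of its squared deviations. Ifi27l2b has close relatives, of which Ifi27 (-0.34 in UN-Veh against NN-Veh and 0.21 in UN-TU against UN-Veh) was the only other one measured by a probe set of its own. Cross-hybridization among the relatives was not tested.

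Ly6d and Sprr1a shared their leading groups. Ly6d read 6.94, 7.70, 8.31 and 7.53 in UN-Veh and 7.28, 7.96, 7.57 and 7.35 in UN-17wk. In the other 6 groups it lay between 5.61 and 6.71, apart from 1 NN-Veh liver (replicate 18) at 7.20. All 4 UN-17wk livers were above all 4 NN-17wk livers (5.95, 6.03, 6.63 and 6.71), while UN-Veh and NN-Veh (6.04, 6.23, 5.81 and 7.20) overlapped through replicate 18. Sprr1a read 4.57, 5.33, 5.39 and 4.81 in UN-Veh and 3.93, 5.43, 4.65 and 5.63 in UN-17wk. Its highest value of the series, 5.63, was on replicate 14. In UN-TU it read 3.44, 3.5, 4.05 and 4.68, of which the last lay inside the range of UN-Veh. No other group of Sprr1a held a value above 4.32. Means of Ly6d ran from 7.62 ± 0.56 (UN-Veh) to 5.86 ± 0.16 (NN-9wk, n = 3) and those of Sprr1a from 5.03 ± 0.40 (UN-Veh) to 3.29 ± 0.36 (NN-9wk, n = 3), and no neighbours in the order of Sprr1a were free of overlap.

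Rgs16 and Rarres1 had the widest spread of the 8 among mice of 1 group. Rgs16 read 4.19, 9.32 and 5.18 in NN-9wk, 5.44, 4.81 and 5.36 in UN-9wk, and 5.23, 6.07, 9.03 and 8.49 in UN-TU. In UN-TU, 2 livers were below every UN-Veh liver and 2 lay in the range of UN-Veh (8.09, 9.25, 9.34 and 10.07). In the NN arm it read 5.71, 7.0, 7.24 and 7.18 with vehicle and 7.19, 7.07, 8.45 and 9.49 with TUDCA. Its SD within groups was 1.27, at the percentile 99.99 of all probe sets of named genes, and 47.3% of its squared deviations lay within groups. Rarres1 had an SD within groups of 0.79 and 61.7% of its squared deviations within groups. It read 4.42, 7.25 and 6.82 in NN-9wk, 4.38, 6.43, 6.92 and 6.16 in NN-TU, and 4.99, 5.43, 6.61 and 6.82 in UN-TU. The vehicle groups of 22 weeks were the tightest, with 5.35, 5.55, 5.61 and 5.68 in NN-Veh and 7.20, 7.25, 7.42 and 6.96 in UN-Veh. For both genes no neighbours in the order of the 8 group means were free of overlap.

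Slc20a1 and Aqp4 moved over the smallest ranges, 1.86 and 1.44 on the log2 scale. Slc20a1 read 7.47, 7.77, 7.58 and 7.81 in UN-Veh and 6.94, 6.87, 6.88 and 6.98 in NN-Veh. With TUDCA it read 6.65, 6.55, 6.42 and 6.46 in NN and 6.71, 6.96, 7.04 and 7.28 in UN. Its lowest value of the series, 5.96, was on replicate 14, whose UN-17wk group otherwise read 7.68, 7.81 and 7.41. Aqp4 read 5.68, 6.15, 6.06 and 5.94 in UN-Veh and 5.03, 5.11, 5.36 and 5.09 in NN-Veh, and 4.98, 5.03, 5.17 and 5.25 in UN-TU. At 17 weeks NN (5.49, 5.68, 5.86 and 5.46) and UN (6.03, 5.56, 5.55 and, on replicate 14, 4.96) overlapped. Within groups lay 57.3% of the squared deviations of Slc20a1, replicate 14 included. Aqp4 was the steadiest of the 8 within groups, with an SD of 0.22.

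The differences that chose the genes were these. UN-Veh minus NN-Veh was 2.41 (SE 0.67) for Rgs16, 1.66 (SE 0.40) for Rarres1, 1.30 (SE 0.27) for Ly6d, 1.27 (SE 0.23) for Sprr1a and 1.05 (SE 0.19) for Themis, and it was 0.93 (SE 0.23) for Ifi27l2b, 0.81 (SE 0.11) for Aqp4 and 0.74 (SE 0.11) for Slc20a1. The groups did not overlap for 6 of the 8, all but Ly6d and Ifi27l2b, where 4.72% of all probe sets were higher in UN-Veh without overlap. UN-TU minus UN-Veh was -1.98 (SE 0.67) for Rgs16, -1.93 (SE 0.19) for Themis, -1.29 (SE 0.27) for Ly6d and -1.25 (SE 0.40) for Rarres1, and it was -1.14 (SE 0.23) for Ifi27l2b, -1.11 (SE 0.23) for Sprr1a, -0.85 (SE 0.11) for Aqp4 and -0.66 (SE 0.11) for Slc20a1. Here too 6 of 8 did not overlap, all but Sprr1a and Rgs16, against 3.68% of all probe sets lower in UN-TU without overlap. Both differences share the UN-Veh livers, and nothing is read from either count because the genes were picked on them.

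UN-TU livers came back to about the NN-Veh level for some of the 8 and beyond it for Themis. UN-TU minus NN-Veh was 0.01 (SE 0.27) for Ly6d, -0.04 (SE 0.11) for Aqp4, 0.08 (SE 0.11) for Slc20a1, 0.16 (SE 0.23) for Sprr1a and -0.22 (SE 0.23) for Ifi27l2b. It was 0.42 for Rarres1 and Rgs16, with SE of 0.40 and 0.67. For Themis it was -0.88 (SE 0.19), and all UN-TU livers were below all NN-Veh livers. These differences share arrays with those that chose the genes and are not tested.

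The values at 17 weeks belong to the readout that chose the genes and are described without a test. UN-17wk minus UN-9wk was 3.31 for Rgs16, 2.23 for Themis, 2.13 for Ifi27l2b, 1.55 for Sprr1a and 1.54 for Ly6d, each without overlap between the groups (2.64% of all probe sets were higher without overlap). Without replicate 14 these were 3.56, 2.55, 2.17, 1.31 and 1.61. UN-17wk minus NN-17wk was 1.22 for Themis, 1.21 for Ly6d, 1.18 for Ifi27l2b, 1.11 for Rgs16 and 1.09 for Sprr1a, with no overlap for Ly6d and Ifi27l2b (1.49% of all probe sets). Without replicate 14 these were 1.54, 1.28, 1.22, 1.36 and 0.85. Rarres1 had a mean of 6.96 in UN-9wk and 6.71 in UN-17wk (-0.26, and 0.08 without replicate 14), and its UN-17wk minus NN-17wk was 0.56 (0.89 without it). In UN-17wk minus UN-9wk Slc20a1 had 0.17 and Aqp4 0.49, which became 0.59 and 0.68 without replicate 14. In UN-17wk minus NN-17wk these were -0.15 for Slc20a1 and -0.10 for Aqp4, which became 0.27 and 0.09 without replicate 14.

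Earlier results of these data were known when the genes were chosen, so TUDCA in NN offspring may not be independent of the choice. The choice does not name this comparison, and in it Themis fell. NN-TU minus NN-Veh was -1.12 (SE 0.19, adjusted p = 0.00475, limma with Benjamini-Hochberg adjustment over 25341 probe sets, 4 mice per group), and all 4 NN-TU livers lay below all 4 NN-Veh livers. In a fit of all 30 arrays the adjusted p of Themis was 0.124, the highest of 26 alternatives, of which the lowest was 0.00179. Slc20a1 had -0.40 (SE 0.11, adjusted p = 0.0675) and Aqp4 -0.28 (SE 0.11, adjusted p = 0.199), both without overlap between the groups and without passing an adjusted p of 0.05. Slc20a1 passed it in the same fit without NN-TU replicate 19 and without UN-TU replicate 27 or 30 (adjusted p = 0.0384 and 0.0432 for the latter), and its adjusted p ranged from 0.0384 to 1.0 over the 26 alternatives. Ifi27l2b had -0.43 (SE 0.23), Ly6d -0.33 (SE 0.27) and Sprr1a -0.29 (SE 0.23). Rgs16 had 1.27 (SE 0.67, adjusted p = 0.370) and Rarres1 0.43 (SE 0.40, adjusted p = 0.652), the 2 with a higher mean under TUDCA. So 1 of 8 passed, against 1.35% of all probe sets tested (1.06% lower), and 3 of 8 were lower without overlap, against 5.8% of all. The median over the 8 was -0.31 and that over all probe sets -0.04. The NN-Veh livers also stand in the difference of UN-Veh from NN-Veh, and picking genes low in NN-Veh pushes the difference of NN-TU from NN-Veh upward. Slc20a1 was higher in UN-TU than in NN-TU by 0.48 (SE 0.11) without overlap, a value given without a test.

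**Figure D2:**
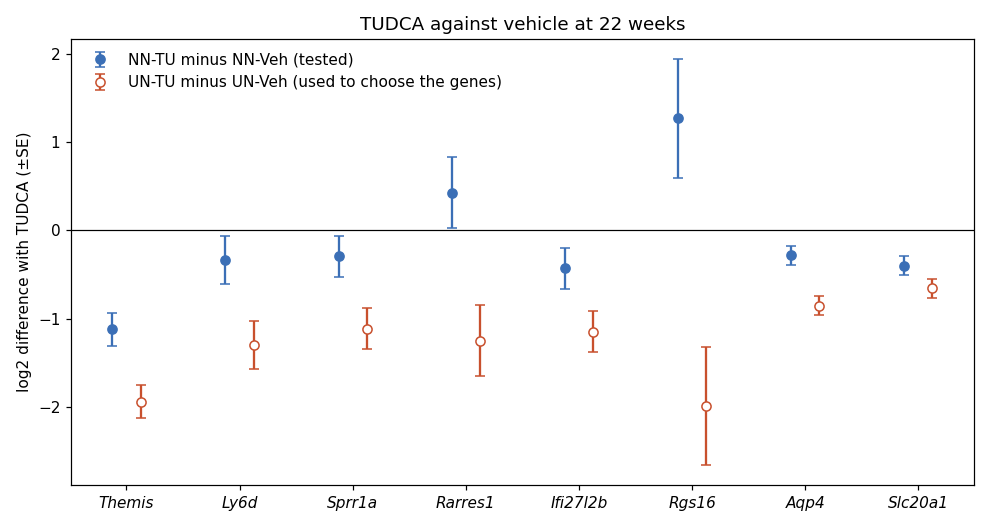
Log2 difference between TUDCA and vehicle at 22 weeks for the 8 genes, in NN livers (filled blue, tested) and in UN livers (open orange, used to choose the genes), with bars of 1 SE. Rgs16 lies at 1.27 in NN and -1.98 in UN, while Themis lies below 0 in both (-1.12 and -1.93).

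In NN offspring Themis, Ifi27l2b and Aqp4 had higher signals after HFD than before it, without overlap between the groups, but 0 of 8 passed an adjusted p of 0.05 in limma. NN-17wk minus NN-9wk was 1.35 (SE 0.30, adjusted p = 0.577) for Themis, 1.32 (SE 0.20, adjusted p = 0.0796) for Ifi27l2b and 0.57 (SE 0.21, adjusted p = 1.0) for Aqp4. Without UN-17wk replicate 14, which enters the shared spread, the adjusted p was 0.00497 for Themis and 0.00698 for Ifi27l2b, so that 2 of 8 passed. Over 24 alternatives the adjusted p ranged from 1.80e-04 to 1.0 for Themis and from 5.44e-04 to 0.46 for Ifi27l2b. Rgs16 had 1.17 (SE 0.89), Sprr1a 0.53 (SE 0.37), Slc20a1 0.51 (SE 0.44), Ly6d 0.47 (SE 0.22) and Rarres1 -0.01 (SE 0.59), each with an adjusted p of 1.0 in limma. In the limma fit with replicate 14, 0.0158% of all probe sets passed in either direction and 2.5% had an unadjusted p under 0.05 (3 of 8 here). Of all probe sets 5.17% were higher without overlap. No share of all probe sets is given for the fit without replicate 14, so nothing is read from its 2 of 8. The study had looked at this difference when it chose 5 of the 8 genes, and age and diet cannot be told apart in it. The NN-17wk livers also stand in the difference of UN-17wk from NN-17wk, which belongs to the readout that chose the genes. Picking genes low in NN-17wk pushes the difference of NN-17wk from NN-9wk downward.

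Before HFD, at 9 weeks, Themis and Ifi27l2b were higher in UN than in NN without overlap, and neither passed the adjusted threshold. UN-9wk minus NN-9wk was 0.35 (SE 0.12) for Themis and 0.37 (SE 0.13) for Ifi27l2b, each with an unadjusted p of 0.018 and an adjusted p of 1.0 in limma (3 mice per group). The other 6 lay between -1.03 (SE 1.02, Rgs16) and 0.80 (SE 0.59, Rarres1), with adjusted p of 1.0. In limma 0 of 8 passed and 2 of 8 had an unadjusted p under 0.05, where 0% of all probe sets passed, 3.61% had an unadjusted p under 0.05 and 4.19% were higher without overlap. The large value of Rgs16 rests on 1 liver, since without NN-9wk replicate 2 (9.32) it was 0.52. The UN-9wk livers also stand in the difference of UN-17wk from UN-9wk, which belongs to the readout that chose the genes. Picking genes low in UN-9wk pushes the difference of UN-9wk from NN-9wk downward.

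No T-cell or NK-cell marker passed the test in the comparisons in which Themis differed at 22 weeks. Of 14 measured markers 0 rose and 0 fell with TUDCA in NN or in UN livers, or in UN-Veh against NN-Veh (limma, with 1, 3 and 0 at an unadjusted p under 0.05). Over all probe sets 1.35%, 0.406% and 0.418% passed the adjusted threshold in these comparisons and 15.7%, 10.6% and 9.31% had an unadjusted p under 0.05. The marker means were lower for 13 of the 14 in UN-TU against UN-Veh, all but Lat, where 53.2% of all probe sets were lower, with a list median of -0.15. They were lower for 8 of 14 in NN-TU (62.2% of all) and higher for 11 of 14 in UN-Veh, with list medians of -0.06 and 0.06. The medians over all probe sets were -0.044 and 0.015. The receptor subunit Cd3d had 0.36 in NN-TU (adjusted p = 0.0573, limma), -0.14 in UN-TU and 0.12 in UN-Veh. The receptor subunit Cd3e had 0.17 in NN-TU, -0.28 in UN-TU and 0.24 in UN-Veh, and the kinase Zap70 had -0.14, -0.09 and -0.18. The summed signal of the 14 stayed between 8.13 and 8.49 on the log2 scale in the 7 groups outside UN-17wk, and on the same arrays Themis lay between 3.20 and 5.89. In UN-17wk the sum was 8.22 and 8.23 on replicates 11 and 12, 8.80 on replicate 13 and 8.31 on replicate 14, where Themis read 6.71, 6.31, 5.96 and 5.05. In each group between 5 and 8 of the 14 were below the array median. The part of T cells in the differences of Themis was not tested. Among 12 measured genes of the THEMIS family and of T-cell receptor signalling 0 rose and 0 fell in these comparisons, among them Themis2 (-0.19, -0.20 and 0.05).

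**Figure D3:**
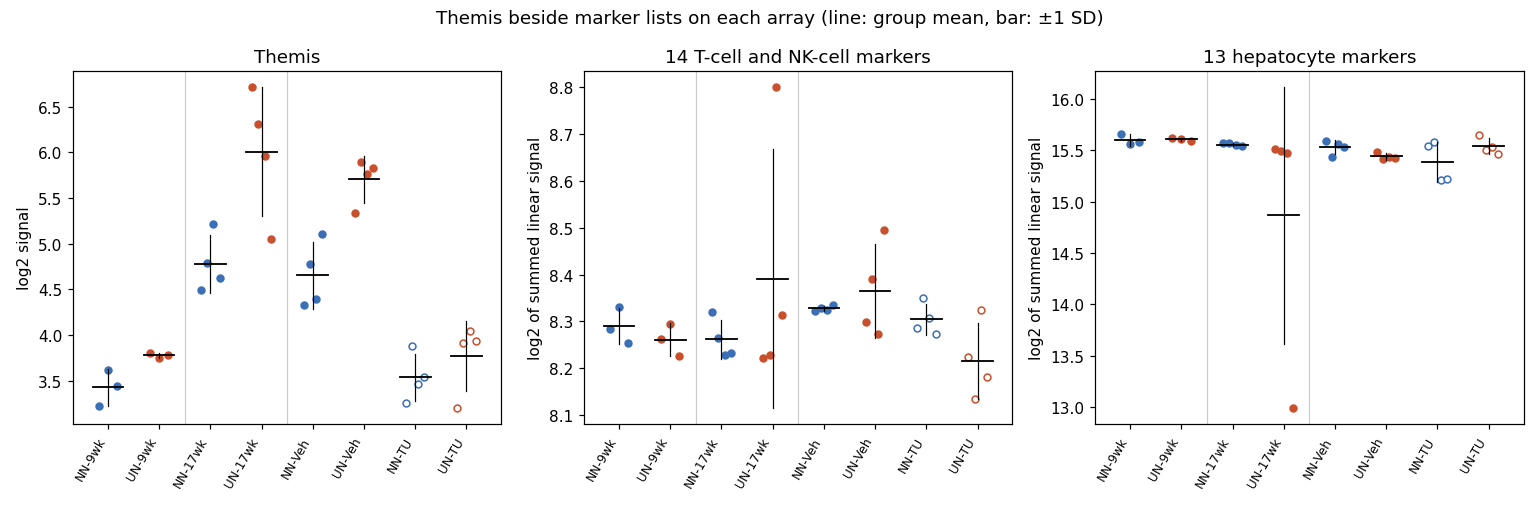
Log2 signal of Themis, and the log2 of the summed linear signal of 14 T-cell and NK-cell markers and of 13 hepatocyte markers, on each of the 30 arrays by group (lines are means, bars 1 SD). Themis spans 3.51 log2 units over the 30 arrays, the T-cell sum lies between 8.13 and 8.80, and the hepatocyte sum drops to 12.99 on UN-17wk replicate 14.

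Squamous epithelium markers and most relatives of the other genes did not pass the test either. Beside the counts below, 1.35% of all probe sets passed the adjusted threshold in NN-TU, 0.406% in UN-TU and 0.418% in UN-Veh. The shares of all probe sets at an unadjusted p under 0.05 in limma were 15.7%, 10.6% and 9.31%. Of 14 squamous markers 0 rose and 0 fell in the 3 comparisons of cohort 3 (1 each at an unadjusted p under 0.05 in limma), their summed signal stayed between 8.05 and 8.31 outside UN-17wk, and Trp63 had 0.06 in NN-TU, -0.02 in UN-TU and 0.15 in UN-Veh. Of 11 measured relatives of Sprr1a 0 rose and 0 fell, with Sprr1b at -0.24, 0.11 and -0.43. Likewise 0 of 15 relatives of Ly6d and 0 of 20 of Rgs16 rose or fell. At an unadjusted p under 0.05 each of these 3 families had between 0 and 3 members per comparison in limma. Of 23 interferon-stimulated genes 0 rose and 0 fell (8, 0 and 8 at an unadjusted p under 0.05 in NN-TU, UN-TU and UN-Veh, limma), with a list median of -0.21 in NN-TU, 0.09 in UN-TU and -0.10 in UN-Veh, beside -0.43, -1.14 and 0.93 for Ifi27l2b. Aquaporins differed from each other. Aqp1 rose in UN-Veh (0.72) and in NN-TU (0.49), Aqp8, found in hepatocytes, rose in UN-Veh (1.14), and the glycerol channel Aqp9 had 0.21, with 2 of 11 rising in UN-Veh and 1 in NN-TU. Among 11 other phosphate carriers Slc17a1 rose in UN-TU (0.57), opposite to Slc20a1, and the closest relative, Slc20a2, had 0.01 there. Others had the directions of Slc20a1 without passing the adjusted threshold. Slc17a4 had -0.54 in NN-TU, -0.54 in UN-TU and 0.53 in UN-Veh, and Slc37a4 had -0.09, -0.41 and 0.40. Of 13 measured retinoid genes 0 rose and 0 fell (2, 0 and 3 at an unadjusted p under 0.05 in NN-TU, UN-TU and UN-Veh, limma).

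Promoters are shown for 4 of the genes because Themis and Slc20a1 varied together within groups, Sprr1a and Slc20a1 hold the motif matches, and Rgs16 had the widest range. The sequences are from RefSeq on GRCm38.p6, each of the 250 bases before the first annotated start (Themis and Slc20a1 have a second one, not printed), read on the strand of the gene. Promoters of 5 of the 8 genes were used, not those of Ly6d, Ifi27l2b and Aqp4. Capitals mark matches on either strand to any of 7 motifs, the E-box CACGTG, the AP-1 site TGANTCA, the STAT site TTCNNNGAA, the core of the interferon response element, the nuclear receptor site AGGTCA, the D-box TTANGTAA and the TATA box TATAAA.
Themis promoter, chr10:28668110-28668359, plus strand: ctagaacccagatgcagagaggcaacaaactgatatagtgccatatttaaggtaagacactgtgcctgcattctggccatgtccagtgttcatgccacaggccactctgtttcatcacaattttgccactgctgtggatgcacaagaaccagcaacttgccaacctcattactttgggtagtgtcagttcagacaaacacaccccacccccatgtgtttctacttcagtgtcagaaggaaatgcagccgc
Slc20a1 promoter, chr2:129198523-129198772, plus strand: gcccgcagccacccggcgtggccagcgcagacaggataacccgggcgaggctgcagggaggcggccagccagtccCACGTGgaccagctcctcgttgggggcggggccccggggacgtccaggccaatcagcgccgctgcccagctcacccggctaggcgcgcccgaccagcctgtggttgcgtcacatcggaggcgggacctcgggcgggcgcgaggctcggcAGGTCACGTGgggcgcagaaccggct
Sprr1a promoter, chr3:92485882-92486131, minus strand: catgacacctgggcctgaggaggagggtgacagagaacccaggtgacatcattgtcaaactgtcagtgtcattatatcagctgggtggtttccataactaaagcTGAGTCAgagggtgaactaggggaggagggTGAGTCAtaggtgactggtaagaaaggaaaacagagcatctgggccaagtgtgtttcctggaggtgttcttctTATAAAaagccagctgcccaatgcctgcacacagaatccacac
Rgs16 promoter, chr1:153740103-153740352, plus strand: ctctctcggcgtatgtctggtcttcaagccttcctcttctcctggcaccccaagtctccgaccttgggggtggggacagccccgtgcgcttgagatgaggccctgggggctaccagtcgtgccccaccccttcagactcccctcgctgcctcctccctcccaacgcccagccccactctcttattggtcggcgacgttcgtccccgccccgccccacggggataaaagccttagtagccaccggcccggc

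Sprr1a held the AP-1 motif at 146 and at 116 bases before the start and a TATA box at 43. Of 32851 promoter windows of this length 6.75% held an AP-1 match and 12.4% a TATA box. Slc20a1 held the E-box at 175 and at 22 bases, the nearer one overlapping a nuclear receptor site at 26, and the shares over all windows were 6.02% and 14%. The window of its second start held 1 further nuclear receptor site, at 75 bases. Both windows of Themis and those of Rgs16 and Rarres1 held none of the 7 motifs, and the shares for the other motifs were 7.02% (STAT), 2.98% (interferon) and 2.06% (D-box). The motifs were chosen with some of these promoters already seen, and a match is a description of letters only.

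Within groups the 8 genes tended to be high or low in the same livers. For each array the deviation from its group mean was taken, which removes the group differences that chose the genes, and 25 of 28 pairs had a positive Pearson r, with a median of 0.36 and a range from -0.23 to 0.68. A member and any other probe set had a median r of 0.06. Of the 28 pairs 6 had an r above 0.5, against 10.8% of the pairs of a member with any other probe set. Without UN-17wk replicate 14 the median over the 28 pairs was 0.37 and that with other probe sets 0.02, and 5 of 28 pairs had an r above 0.5, against 1.74%. The other probe sets were not matched to the 8 for spread within groups. By that SD Aqp4 lay at the percentile 50.8 of all probe sets, and the others from 83.1 (Ifi27l2b) to 99.99 (Rgs16). These shares therefore do not show a co-variation particular to the 8. In a two-sided permutation test of 100000 shuffles within groups, 8 of 28 pairs passed an adjusted p of 0.05 (Benjamini-Hochberg over the 28), all of them positive. Without replicate 14, 3 passed, namely Ly6d with Sprr1a, Themis with Slc20a1 and Sprr1a with Rarres1. The last pair was not among the 8. Its r was 0.34 on 30 arrays (adjusted p = 0.190, permutation test) and 0.52 without replicate 14 (adjusted p = 0.0495, permutation test).

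Ly6d and Sprr1a formed the steadiest pair. Their deviations had an r of 0.59 (adjusted p = 0.0084, permutation test, 30 arrays) and a Spearman rho of 0.67 (adjusted p = 0.0106, permutation test). The pair passed in each of 30 sets with 1 array left out, with an r between 0.56 and 0.70. Without the 2 livers farthest from the median of Ly6d (NN-Veh replicate 18 and UN-Veh replicate 25) r was 0.61. Within cohort 3 alone r was 0.78 (adjusted p = 0.00336, permutation test), and within cohorts 1 and 2 it was 0.42 (unadjusted p = 0.221, permutation test) and 0.64 without replicate 14. UN-Veh shows the pair in single livers, with Ly6d at 6.94, 7.70, 8.31 and 7.53 and Sprr1a at 4.57, 5.33, 5.39 and 4.81 in the same order of mice, and so does UN-TU, where the livers with Ly6d at 6.61 and 6.62 had Sprr1a at 4.05 and 4.68.

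Themis and Slc20a1 had an r of 0.65 (adjusted p = 0.0084, permutation test) and a rho of 0.54 (adjusted p = 0.0238, permutation test), and passed in all 30 sets with 1 array left out. Much of this size came from 1 array, since r was 0.37 without replicate 14 (adjusted p = 0.0495, permutation test) and 0.38 without the 2 livers farthest from the median of Themis. Within cohort 3 r was 0.56 (adjusted p = 0.200, permutation test), and within cohorts 1 and 2 it was 0.74, or 0.39 without replicate 14. Rarres1 and Rgs16 had an r of 0.68 (adjusted p = 0.0482, permutation test) and a rho of 0.62 (adjusted p = 0.0574, permutation test). Here r was 0.68 without replicate 14 (adjusted p = 0.0660, permutation test), 0.61 without the 2 livers farthest from the median of Rarres1, 0.62 within cohort 3 and 0.74 within cohorts 1 and 2, and the pair passed in 14 of 30 sets with 1 array left out. In NN-9wk the liver with Rgs16 at 4.19 had Rarres1 at 4.42, and in UN-TU the livers with Rgs16 at 5.23 and 6.07 had Rarres1 at 4.99 and 5.43. The other pairs that passed on 30 arrays were Themis with Rarres1 (0.53), Rgs16 (0.47), Aqp4 (0.68) and Ifi27l2b (0.46), and Rarres1 with Slc20a1 (0.56). Without replicate 14 these r were 0.45, 0.49, 0.47, 0.54 and 0.50, and none of them passed (adjusted p from 0.0601 to 0.127, permutation test). Sprr1a and Aqp4 had the lowest r (-0.23, and 0.01 without replicate 14).

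**Figure D4:**
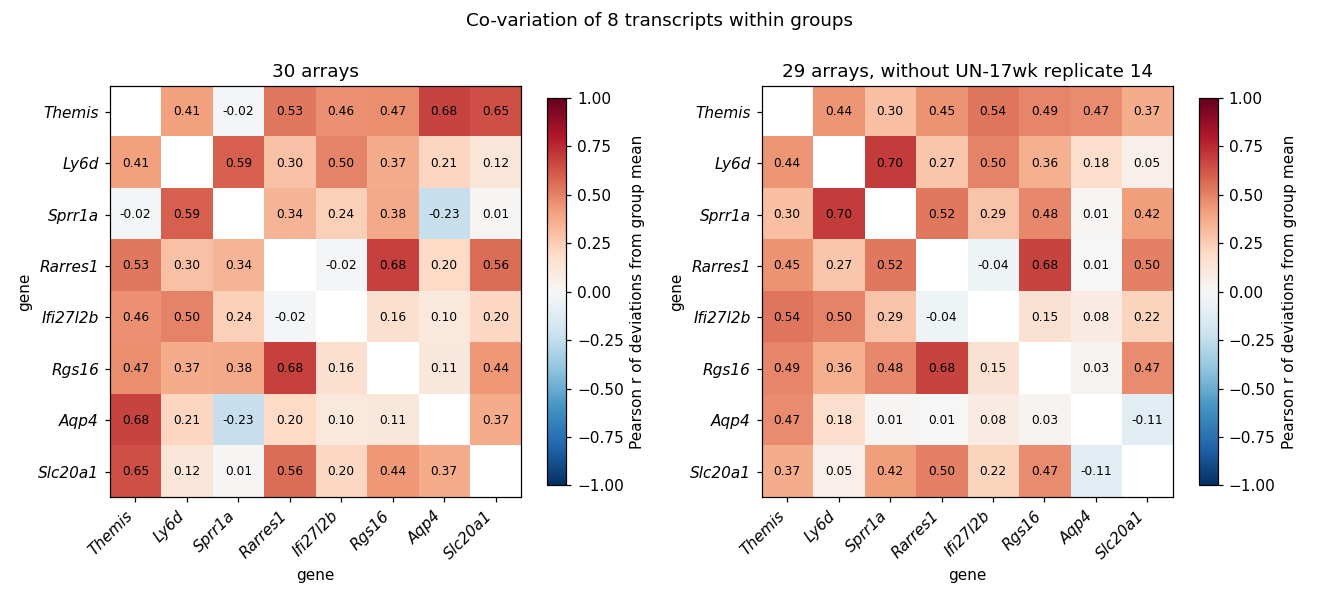
Pearson r between the 8 genes over deviations from the group mean, on 30 arrays (left) and without UN-17wk replicate 14 (right), on a colour scale from -1 to 1. Ly6d with Sprr1a goes from 0.59 to 0.70, whereas Themis with Slc20a1 goes from 0.65 to 0.37.

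**Figure D5:**
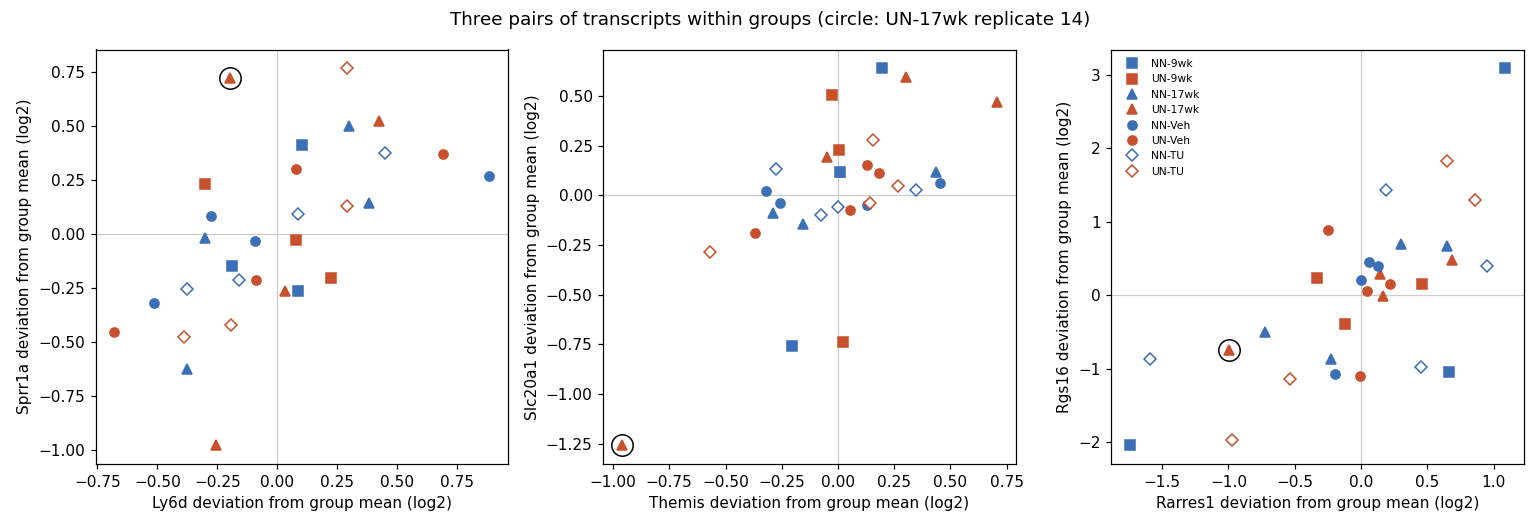
Deviation from the group mean in log2 units for 3 pairs of genes, 1 point per array with colour and shape by group and a circle around UN-17wk replicate 14. Ly6d against Sprr1a (r = 0.59) has the circled array off the trend, Themis against Slc20a1 (r = 0.65) has it at the lower end, and Rarres1 against Rgs16 (r = 0.68) has both NN-9wk extremes at its ends.

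Clock genes varied with Rgs16 and with Slc20a1 within groups. Over 29 arrays without replicate 14, the r of Rgs16 with 16 measured clock genes lay between -0.69 and 0.71, with 10 above 0. It was 0.71 with Nr1d1, a repressor of the clock, 0.66 with the output gene Dbp, 0.66 with Per3 and -0.64 with Arntl, an activator of the core loop. Slc20a1 had 0.71 with Per3, 0.56 with Dbp, 0.41 with Nr1d1 and -0.62 with Arntl. For Ly6d the 16 measured clock genes lay between -0.40 and 0.12, and for Aqp4 between -0.42 and 0.28. For Rarres1 these r lay between -0.60 and 0.48, and for Themis between -0.44 and 0.51. For Sprr1a the range was -0.34 to 0.39, and for Ifi27l2b -0.41 to 0.32. Among group differences, Dbp had -1.18, Per3 -0.94 and Arntl 1.1 in UN-TU against UN-Veh. In that comparison 0 of 16 clock genes passed an adjusted p and 11 reached an unadjusted p under 0.05 with limma, where 10.6% of all probe sets did. In NN-TU 2 of 16 did (15.7% of all probe sets) and in UN-Veh 3 of 16 (9.31%). The labels hold no time of day for the mice, and its part in the differences of Rgs16, Slc20a1 and Rarres1 was not tested. These correlations are given without a test, over livers that share their processing.

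Glucose-responsive and lipid droplet genes varied with some of the 8 within groups. The median r with 16 targets of ChREBP, a glucose-sensing transcription factor of liver, lay between 0.08 (Ifi27l2b and Aqp4) and 0.46 (Slc20a1). Among these targets Rgs16 had an r of 0.83 with Txnip, 0.59 with Pklr and -0.76 with G6pc, and Slc20a1 had 0.68 with Pklr and 0.65 with Thrsp (deviations from group means, 29 arrays, no test). Among 14 genes of lipid droplets and of PPARG, a nuclear receptor of fat storage, the median r was 0.45 for Themis, 0.35 for Sprr1a and 0.33 for Rgs16. It was lowest for Aqp4, at 0.20. Rarres1 had 0.78 with Fitm1, which packs fat into droplets. Of these 14 genes 4 rose in UN-Veh, among them Cidea (3.29) and Cidec (2.51), and 2 fell in UN-TU, while in NN-TU 1 fell, Plin4 (-1.0, adjusted p = 0.00369, limma). Of all probe sets 0.312% rose in UN-Veh, 0.268% fell in UN-TU and 1.06% fell in NN-TU.

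Over the 30 arrays with the groups left in, the genes with the most similar pattern were taken from 17176 genes by Pearson r, as a description. These r include the group differences that chose the 8, so that genes with the same group differences come out near them. Cidec, which enlarges lipid droplets, was among the 3 nearest of Ly6d (0.87), Sprr1a (0.84) and Rgs16 (0.81). Its r with them within groups without replicate 14 was 0.58, 0.65 and 0.70. The nearest of Ly6d was Orm3 (0.88), an acute-phase gene, and that of Sprr1a was Pls1 (0.85), an actin bundler. Pls1 had an r of 0.82 with Sprr1a within groups without replicate 14, and Orm3 had 0.50 with Ly6d. Themis was nearest to Lgals1, Ccnd1 and Lamb3 (0.85 each), and Ifi27l2b to Anxa2 (0.87), Lgals1 (0.86) and Cntnap1 (0.85). Within groups without replicate 14 these were 0.52, 0.41 and 0.49 for Themis, and 0.50, 0.64 and 0.42 for Ifi27l2b. Aqp4 was nearest to Ccnd1 (0.80) and Slc20a1 to Bri3 (0.87), Thrsp (0.85) and Slc16a12 (0.85). The r within groups without replicate 14 was 0.26 for Aqp4 with Ccnd1, and 0.75, 0.65 and 0.76 for those of Slc20a1. For Rarres1 the nearest was Csrp3 (0.81), with a higher r within groups (0.87 without replicate 14), and for Rgs16 Pcsk4 followed Cidec (0.80, and 0.85 within groups without replicate 14). Among the 8 themselves the highest r over the 30 arrays was 0.89, between Ly6d and Sprr1a, a value to which the choice of genes contributes.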

How the data were processed

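Total RNA of 30 livers was labelled and hybridized to Affymetrix MoGene 2.1 ST array strips, 1 array per mouse. As deposited, each probe set has a log2 signal, which the authors made with Affymetrix Expression Console. The summarization method and versions are not given in the sources used here. Values of the whole table lay between 1.10 and 12.89. Of 41345 probe sets, 25341 were named by at least 1 gene and tested, and 23521 of these by 1 symbol. The 8 members matched the RefSeq annotation (GRCm38.p6) by gene identifier. No arrays were identical (0 pairs).

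Group differences were fitted with limma 3.58.1 (lmFit and eBayes, R 4.3.3) inside the cohort, or within cohorts 1 and 2 for comparisons between ages, with two-sided p adjusted by Benjamini-Hochberg over 25341 probe sets. Correlations and 100000 shuffles within groups were computed in Python 3.11.15 with numpy 2.4.6. The limma fit and the permutation test of correlations were tested on simulated data. The members, lists and tests were chosen with earlier results of these data known. Text names the 8 members, their relatives, up to 4 genes of each list described and the 3 genes nearest in pattern. The 26 lists included other cell types. Alternatives changed the arrays, the variance model, the filter, the normalization and the test. Precision is limited by how many arrays there are, and p-values measure the spread between mice whose litters are not given.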

Additional observations from a re-analysis of the deposited data

Results flagged for a closer look

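Themis in UN-TU replicate 27 was 3.20, whereas the other UN-TU livers lay between 3.91 and 4.04, and the gap was 0.849 of the range of the group. Rgs16 in NN-Veh replicate 15 was 5.71, whereas the other NN-Veh livers lay between 7.0 and 7.24, and the gap was 0.839 of the range. Both exceed the 95% limit of Dixon's test for 4 samples. Such a gap was looked for in 48 groups of 4 arrays, of which chance alone gives about 1 in 20.

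The mean of Rgs16 was lower with TUDCA in UN livers (-1.98) and higher in NN livers (1.27, adjusted p = 0.370, limma), with overlapping groups in both. Each of the 4 UN-TU livers lay below the mean of UN-Veh and each of the 4 NN-TU livers above the mean of NN-Veh, and the difference of the changes (UN minus NN) was -3.25 on the log2 scale. This difference was not tested, and the UN value within it helped to choose the gene. NN-Veh replicate 15 is 1 of the 4 NN-Veh livers behind it.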

How the results depend on the processing

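No paired analysis was possible because mice are numbered from 1 to 30 and no number is shared between groups. For TUDCA in NN offspring, 1 of 8 genes passed. This became 0 with all 30 arrays in 1 fit and 2 with a variance trend or with the brighter probe sets only (Slc20a1, adjusted p = 0.0498 and 0.0418, limma), and lay between 1 and 2 with 1 array left out. For HFD in NN offspring the 0 of 8 became 2 with all 30 arrays, with the compared groups alone and at the fold and p of the methods' ANOVA, 1 with a variance trend, 3 with array weights and 1 with quantile normalization repeated, and lay between 0 and 2 with 1 array left out (1 without NN-17wk replicate 10, 2 without UN-17wk replicate 14). The share of all probe sets called can change with the alternative too. For HFD in NN offspring it was 0.221% at the fold and p of the methods' ANOVA, against 0.0158% in limma. Shares for the other alternatives are not given, so nothing about the 8 is read from these changes in count. For UN against NN at 9 weeks 0 of 8 passed in every alternative run, the methods' ANOVA included. The directions that chose the genes in cohort 3 were kept by all 8. Of 28 pairs the 8 that passed became 2 with Spearman's rho, 2 in cohort 3 alone, 0 in cohorts 1 and 2 alone (also 0 without UN-17wk replicate 14, chosen after seeing the data) and 4 with quantile normalization. With 1 array left out they lay between 2 (without UN-TU replicate 27) and 9. They were 3 without UN-17wk replicate 14, 4 without NN-17wk replicate 7 or 9, UN-17wk replicate 12 or 13, NN-Veh replicate 15 or UN-Veh replicate 23, and 5 without NN-Veh replicate 18.

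Some small differences changed sign. UN-9wk minus NN-9wk of Aqp4 was 0.0061 with array weights. NN-17wk minus NN-9wk of Rarres1 was 0.0083 with repeated quantile normalization, and 0.0076 once arrays had a common median. With quantile normalization UN-17wk minus NN-17wk was 0.0043 for Aqp4 and 0.21 for Slc20a1, and UN-17wk minus UN-9wk of Rarres1 was 0.028. With 1 array left out, UN-9wk minus NN-9wk ranged from -0.056 to 0.28 for Sprr1a, -0.071 to 1.34 for Rarres1, -2.05 to 0.52 for Rgs16, -0.12 to 0.10 for Aqp4 and -0.19 to 0.56 for Slc20a1. NN-17wk minus NN-9wk of Rarres1 ranged from -0.89 to 0.53, UN-17wk minus NN-17wk from -0.27 to 0.089 for Aqp4 and -0.35 to 0.27 for Slc20a1, and UN-17wk minus UN-9wk from -0.49 to 0.075 for Rarres1 and -0.20 to 0.59 for Slc20a1. The cause was not tested. Dim signals, as those of Sprr1a in most groups and of Themis at 9 weeks and with TUDCA, may understate a difference.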
